A study of Mus musculus with 8 samples.

Results

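The BMP pathway and its Id target genes were followed through 10 genes in KPCY cells, which are pancreatic cancer cells of the mouse, in a table that holds raw counts by gene symbol. The 10 were taken by symbol, and all 10 were present among 24421 rows. They are the ligand Bmp4, the receptors Bmpr1a and Bmpr2, the signal transducer Smad1, the inhibitory Smads Smad6 and Smad7, the decoy receptor Bambi, and the targets Id1, Id2 and Id3. The knockdown group was a stable population transduced with a lentiviral vector that inhibits miR-27a-3p (4 libraries). The scrambled group was a stable population transduced with a vector carrying a scrambled sequence (4 libraries). Cells of both groups had been selected with 2 µg/mL puromycin for 7 days, were labelled male, were grown with 4.5 g/L glucose and 10% fetal bovine serum, and were collected 24 hours after seeding. The study compared the 2 groups in a series on fibroadipogenic progenitors in the cachexia of pancreatic cancer. The labels name biological replicates but describe 1 stable population for each group. The p-values below therefore rest on how far libraries of these populations varied, and no separate transductions were compared.

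Bone morphogenetic proteins bind pairs of type I and type II serine/threonine kinase receptors. The activated type I receptor phosphorylates Smad1, Smad5 and Smad9, which enter the nucleus with Smad4 and switch on target genes, the Id genes foremost. Id proteins carry a helix-loop-helix domain without a DNA-binding region, so they hold E proteins such as Tcf3 away from DNA and so oppose differentiation programmes. Smad6, Smad7 and Bambi are themselves induced by the signal and restrain it. Id genes are typically active in dividing, undifferentiated cells, tumour cells among them.

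The libraries held 19165513 to 23542275 counts. Levels are given as CPM, counts relative to the library total after TMM scaling. Differences are log2 fold changes of knockdown over scrambled with their standard error (SE). They were tested with the quasi-likelihood test of edgeR, and p-values were adjusted by Benjamini-Hochberg over the 11797 genes tested. A gene was called at an adjusted p under 0.05. Scrambled replicate 2 stood apart: its counts differed from the other 3 scrambled libraries by a mean chi-square over genes of 5.03 to 5.2, while the remaining pairs within a group gave 1.72 to 2.31. Results that changed without it are given with and without it. The cells carried the epithelial markers of the labelled type, Krt7, Krt8, Krt18, Krt19, Epcam, Cdh1 and Sox9, with a summed level of 10700 to 11700 CPM in scrambled and 11400 to 11700 in knockdown libraries. The keratins and Cdh1 carried most of that sum, and Epcam was low (7.15 ± 1.80 CPM in scrambled, 5.62 ± 1.16 in knockdown libraries). Of these 7 markers, 3 were called higher (Krt7, 1.24-fold, Cdh1, 1.17-fold, and Krt18) and 2 lower (Sox9, 1.19-fold, and Krt19), and their part in the results below was not tested. The 6 fibroblast markers summed to at most 1.41 CPM, with 4 of them (Col1a2, Pdgfrb, Dcn and Lum) at 0 counts throughout. The 4 immune markers (Adgre1 at 0) summed to at most 4.3 CPM, the 4 endothelial markers to at most 1.03 and the 4 acinar markers (Cpa1 and Amy2a5 at 0) to at most 3.98. In bulk RNA, fewer cells that express a gene and less of its RNA per cell cannot be told apart.

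Among the 10 genes, Id2 fell 1.27-fold, Bambi, present at under 1 CPM, fell 3.35-fold, and Bmpr2 and Smad7 rose by 1.09-fold and 1.11-fold. Bmp4, Bmpr1a, Smad1, Smad6, Id1 and Id3 were not called. Thus 4 of the 10 were called, 2 in each direction, where 47.9% of all tested genes were called, 23.8% higher and 24.1% lower. The share of called genes among the 10 was close to that of the whole transcriptome. All 10 passed the filter on low counts, Bambi through its scrambled libraries alone. Their median log2 fold change was -0.04, and the median over all tested genes was 0.0017. The median size of the log2 fold change, sign aside, was 0.111 for the 10 and 0.133 for all tested genes. The CPM ranges of the 2 groups did not overlap for 2 of the 10, Id2 and Bambi, against 42.2% of tested genes. With a test against a fold of 1.2 in place of no change, 2 of the 10 were called, both lower. They were Id2 and Bambi, and Bambi was tested only through its scrambled libraries. Of all 11797 tested genes, 9.38% were called in either direction, 584 higher and 523 lower.

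**Figure D1:**
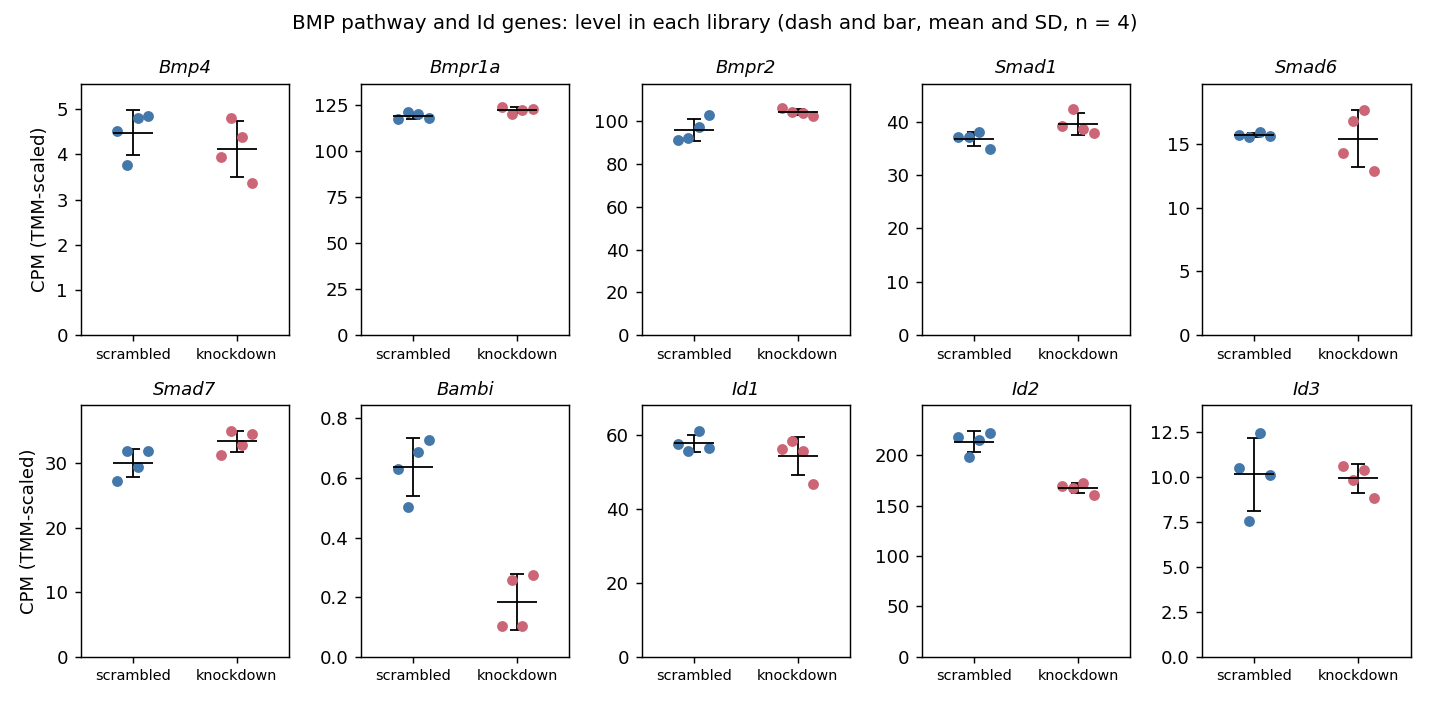
CPM of the 10 genes in each library (points), scrambled and knockdown, with the mean (dash) and SD (bar) of 4 libraries and axes that start at 0. The groups separate for Id2 and Bambi, and overlap for the other 8 genes.

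The inhibited microRNA pairs with its targets through a seed, bases 2 to 8, which it shares with its paralogue miR-27b-3p. Both mature sequences are shown, from RefSeq on GRCm38.p6, with the seed in capitals.
mmu-miR-27a-3p: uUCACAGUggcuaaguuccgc
mmu-miR-27b-3p: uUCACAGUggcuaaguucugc

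The longest annotated 3′ untranslated region (UTR) of each of the 10 genes was searched for matches to that seed. The letters searched were ACTGTGAA (8mer), ACTGTGA (7mer-m8) and CTGTGAA (7mer-A1), on the transcript strand, each place counted once as its longest match. None of the 10 genes held an 8mer, where 6.41% of 11395 tested genes with an annotated UTR did. A 7mer match was present in Id2, Smad1, Bmpr1a and Bambi (2 matches), so 4 of the 10 had a match of any kind, against 29.5% of those tested genes. The matches of 3 of these genes are shown with the match in capitals, to set beside their fold changes. That of Id2 lies 199 bases after the stop codon of a UTR of 785 bases (30 bases shown, chr12:25094367-25094396, minus strand, GRCm38). That of Smad1 lies 1651 bases after the stop codon (chr8:79341952-79341981, minus strand), and that of Bmpr1a 371 bases after it (chr14:34414155-34414184, minus strand).
Id2: ctccggcctggACTGTGAtaccgttattta
Smad1: gtccctgatggACTGTGAttattgaattct
Bmpr1a: agtggtgctttCTGTGAAagccttaagaaa

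Of the genes with a 7mer match, Id2 was called lower. Smad1 and Bmpr1a had log2 fold changes of 0.10 and 0.04 and were not called. Bambi, which also holds matches, passed the filter through its scrambled libraries alone, so its direction is not set beside them. Bmpr2 and Smad7, called higher, had no match in UTRs of 8529 and 1570 bases. Bmp4, Smad6, Id1 and Id3 had none either and were not called. Whether matches and the direction of change go together was not tested. A match of letters is a description of the sequence and does not show that the microRNA bound there. Mature miR-27a is not captured in poly(A)-selected libraries, so how far it was inhibited is not measured here.

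Bmp4, the secreted ligand, was a low-abundance transcript with no difference beyond its spread. Its level was 4.51, 3.78, 4.80 and 4.85 CPM in scrambled replicates 1 to 4, and 3.94, 4.81, 4.39 and 3.37 CPM in knockdown replicates 1 to 4. The groups overlapped, and the log2 fold change was -0.13 (SE 0.135, adjusted p = 0.455 by edgeR), with a 95% interval from -0.41 to 0.15. Leaving out 1 library moved it between -0.04 (without knockdown replicate 4) and -0.21 (without knockdown replicate 2), and it was called in none of these fits. Bmp4 lies on chromosome 14 (46383520 to 46390669, GRCm38, as all positions here) and shares 89 exon bases with Gm15217 on the opposite strand, so a few of its counts are uncertain.

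Bmpr1a, the main type I receptor, which phosphorylates Smad1, was abundant and close to equal in the 2 groups. Scrambled libraries stood at 117, 120.8, 119.7 and 117.9 CPM and knockdown libraries at 123.4, 119.7, 122 and 122.8 CPM. Its log2 fold change of 0.04 (SE 0.0281, adjusted p = 0.283) had a 95% interval from -0.02 to 0.10. Knockdown replicate 2 lay inside the scrambled range and the other 3 knockdown libraries lay above it. Bmpr1a (chromosome 14, 34410734 to 34503341) shares 290 exon bases with the antisense gene Gm17110.

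Bmpr2, the type II receptor that activates the type I partner, rose slightly. It stood at 91.4, 92.2, 97.5 and 102.9 CPM in scrambled and 106.2, 104.6, 104.1 and 102.5 CPM in knockdown libraries. The 4 knockdown libraries were tight, and only scrambled replicate 4 reached into their range. The log2 fold change was 0.12 (SE 0.0358, adjusted p = 0.00871), and it stayed called under every other scaling, filter and tool run and without each library, with adjusted p from 0.00111 to 0.0372. Of all tested genes, 54.3% had a larger change in either direction. Bmpr2 lies on chromosome 1 (59763400 to 59879014) with no exon overlap in the annotation.

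Smad1, which carries the signal to the nucleus, stood at 37.0, 37.1, 38.0 and 34.9 CPM in scrambled and 39.1, 42.5, 38.5 and 37.9 CPM in knockdown libraries. Knockdown replicate 4 lay just below the highest scrambled library, and the other 3 knockdown libraries lay above all scrambled ones. The log2 fold change of 0.10 (SE 0.0484, adjusted p = 0.0859) was not called with TMM factors. It was called with upper-quartile factors (adjusted p = 0.0415) and with library totals alone (adjusted p = 0.0324). Smad1 lies on chromosome 8 (79338395 to 79399518), where the 648 tested genes had a median log2 fold change of 0.207. The medians of the other chromosomes that carry one of the 10 genes ran from -0.0858 to 0.0957, and the part of chromosome position in the Smad1 value was not tested.

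Smad6 and Smad7 block the pathway inside the cell, Smad6 chiefly the BMP branch and Smad7 both the BMP and the TGF-beta branch. Smad6 had 15.7, 15.6, 16.0 and 15.6 CPM in scrambled and 14.3, 16.8, 17.7 and 12.9 CPM in knockdown libraries. The knockdown libraries lay on both sides of the narrow scrambled range, and the log2 fold change was -0.03 (SE 0.0835, adjusted p = 0.778), with a 95% interval from -0.21 to 0.14. Its sign rested on single libraries, with 0.05 without knockdown replicate 4 and -0.11 without knockdown replicate 3, and neither value was called. Smad6 lies on chromosome 9 (63953076 to 64022059).

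Smad7 had 27.3, 31.8, 29.4 and 31.8 CPM in scrambled and 31.3, 34.9, 32.8 and 34.5 CPM in knockdown libraries. Knockdown replicate 1 lay below 2 of the scrambled libraries, and the other 3 lay above them all. The log2 fold change was 0.15 (SE 0.0565, adjusted p = 0.0301). The call held without any 1 of 4 libraries (adjusted p from 0.00528 without scrambled replicate 2 to 0.0456 without knockdown replicate 3). It was lost without scrambled replicate 1 (adjusted p = 0.118), scrambled replicate 3 (0.0701), knockdown replicate 2 (0.0955) or knockdown replicate 4 (0.0885). Smad7 lies on chromosome 18 (75367529 to 75395935), and no exon overlap was annotated for Smad1, Smad6 or Smad7. Within a library, the log2 ratio of Smad7 to Smad6 counts was 1.12 ± 0.223 for knockdown and 0.933 ± 0.114 for scrambled cells (SD over 4 libraries). These counts are not corrected for gene length, so the ratio compares the groups and does not give the relative level of the 2 genes. An exact permutation test, two-sided, gave p = 0.143, or 0.179 adjusted over 5 pairs of genes.

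Bambi, a receptor-like protein without a kinase domain that holds receptors in inactive complexes, showed the largest fold of the 10 genes at the lowest level. Its counts were 13, 10, 16 and 15 in scrambled and 2, 5, 2 and 6 in knockdown libraries, which is 0.631, 0.503, 0.686 and 0.728 CPM against 0.102, 0.259, 0.102 and 0.274 CPM. No knockdown library reached the lowest scrambled one. The fitted log2 fold change was -1.75 (SE 0.414, adjusted p = 0.00136 by edgeR), and 0.966% of tested genes had a larger change in either direction. Bambi entered the test through the scrambled group alone, since all 4 scrambled libraries but none of the knockdown libraries reached the filter's level of 0.49 CPM. A gene that stood in both groups at the knockdown level of Bambi would not have been tested. The place of Bambi among the changed genes is therefore a description and supports nothing further. The ratio of summed counts, 15 in the knockdown against 54 in the scrambled group and scaled to library totals, was 0.297 with an exact 95% interval from 0.156 to 0.534, which covers counting error only. Without each library in turn and under the other alternatives, no filter included, the call held, except that Bambi was not tested when at least 1 CPM in 4 libraries was asked for. Bambi lies on chromosome 18 (3507923 to 3516404) and shared no run of 59 bases, the read length, with transcripts of other genes in the annotation. Its pseudogene Bambi-ps1 had 30 counts over the 8 libraries.

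Id2 was the most abundant of the 10 genes and the one with the smallest adjusted p. It stood at 218, 199, 215 and 222 CPM in scrambled and 169.6, 167.4, 172.4 and 160.2 CPM in knockdown libraries. Every knockdown library lay below every scrambled one, with a gap wider than the spread of either group. The log2 fold change was -0.35 (SE 0.0324, adjusted p = 8.54e-09), a 1.27-fold fall, with a 95% interval from -0.42 to -0.28. Under the other scalings, filters and tools and without each library it ranged from -0.38 to -0.32 and stayed called. The change was of moderate size among all tested genes, of which 16.4% had a larger one in either direction. Id2 lies on chromosome 12 (25093799 to 25097140), where the median log2 fold change of 405 tested genes was 0.0957.

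Id1 stood at 57.8, 55.9, 61.2 and 56.6 CPM in scrambled and 56.3, 58.6, 55.9 and 46.8 CPM in knockdown libraries. Knockdown replicate 4 was low, while the other 3 lay within the scrambled range. The log2 fold change of -0.09 (SE 0.0539, adjusted p = 0.158) was not called, and its 95% interval ran from -0.21 to 0.02. Without scrambled replicate 2 it was -0.11 and called lower (adjusted p = 0.0463). Without knockdown replicate 4, the low library, it was -0.03 (adjusted p = 0.681). Id1 lies on chromosome 2 (152736251 to 152737410).

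Id3 was the least abundant of the 3 Id genes and the most variable between scrambled libraries. It stood at 10.5, 7.55, 12.5 and 10.1 CPM in scrambled and 10.6, 9.84, 10.4 and 8.84 CPM in knockdown libraries. The knockdown range lay within the scrambled range, whose lowest value was that of scrambled replicate 2, and the log2 fold change was -0.04 (SE 0.113, adjusted p = 0.784), with a 95% interval from -0.28 to 0.19. Without each library in turn and under the other settings it took values from -0.16 to 0.08 and was never called. Id3 lies on chromosome 4 (136143497 to 136145755), and no exon overlap was annotated for Id1, Id2 or Id3.

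**Figure D2:**
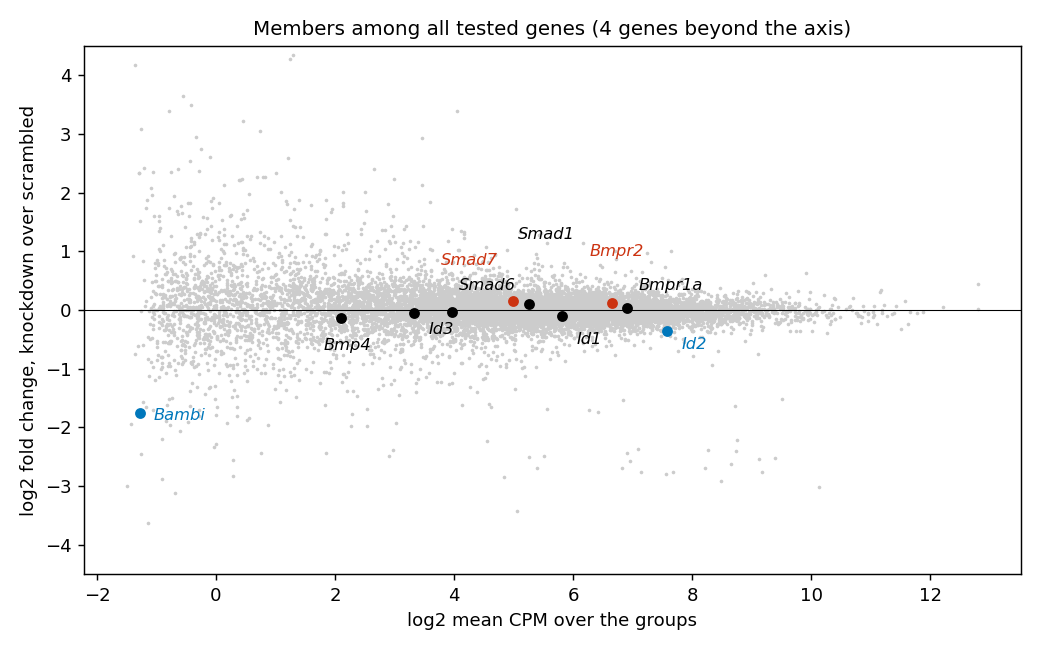
Log2 fold change (knockdown over scrambled) against log2 mean CPM for the 11797 tested genes (grey, 4 beyond the axis) with the 10 genes labelled in red (called higher), blue (called lower) or black (not called). Bambi sits at the low end of expression with a fold change of -1.75, Id2 at the high end with -0.35, and the other 8 lie close to 0.

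Whether Id2 fell more than its relatives was asked within libraries, where scaling cancels. These pairs were chosen after the values were seen. The log2 ratio of Id2 to Id1 counts was 1.92, 1.83, 1.81 and 1.97 in scrambled and 1.59, 1.52, 1.63 and 1.78 in knockdown libraries. The groups did not overlap, and the difference of -0.26 gave an exact two-sided permutation p of 0.0286, the smallest that 4 against 4 libraries can give, and an adjusted p of 0.143 over 5 pairs. For Id2 to Id3 the ratios were 4.38, 4.72, 4.11 and 4.46 against 3.99, 4.09, 4.05 and 4.18, with 1 scrambled library inside the knockdown range (difference -0.34, exact p = 0.0571, adjusted p = 0.143). Id1 to Id3 differed by -0.08 (exact p = 0.714). None of the 5 pairs passed the correction. With 4 libraries a group, a pair at the smallest p can pass it only where other pairs reach that p too. This permutation test could therefore hardly show whether the fall was particular to Id2. The fifth pair, Bmpr2 to Bmpr1a, differed by 0.08 (exact p = 0.114, adjusted p = 0.179).

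Levels of different genes were compared per length, as TPM, transcript abundance corrected for the length of the union of annotated exons. In scrambled cells the order was Id2 (333 ± 16.7 TPM), Id1 (190 ± 8.31), Bmpr1a (71.3 ± 0.998), Smad7 (25.3 ± 1.83), Smad1 (22.4 ± 0.798), Id3 (21.6 ± 4.36), Bmpr2 (20.3 ± 1.19), Smad6 (18.7 ± 0.278), Bmp4 (7.6 ± 0.865) and Bambi (0.478 ± 0.0747, SD, n = 4 throughout). The library range of Id3, 16.0 to 26.6 TPM, overlapped those of Smad7, Smad1, Bmpr2 and Smad6, so its place among these 4 is not settled. The ranges of Smad7 and Smad1, and of Smad1 and Bmpr2, overlapped as well. In knockdown cells Id2 (265 ± 7.84 TPM), Id1 (181 ± 17) and Bmpr1a (74.2 ± 1.18) again led, and Bmp4 (7.09 ± 1.04) and Bambi (0.14 ± 0.0722) again came last. With the longest coding transcript as the length, the TPM in scrambled cells was 25.1 for Smad1, 20.5 for Id3, 19.2 for Bmpr2 and 18.1 for Smad7. Smad7 thus came after Smad1, Id3 and Bmpr2 instead of before them. With that length Id2, Id1 and Bmpr1a still led, and Bmp4 and Bambi still came last.

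Id2 and Id1 thus made up nearly all of the Id transcripts. Id2 took 59.6% to 62.5% of the summed TPM of Id1, Id2 and Id3 in scrambled and 55.1% to 59.2% in knockdown libraries. Id1 took 33.6% to 36% and 36.3% to 40.5% in the same order, and Id3 3.15% to 4.79% over all libraries. Their sum was 508 to 566 TPM in scrambled and 430 to 480 TPM in knockdown libraries, so the groups did not overlap. Id4, the fourth Id gene, had 4 to 12 counts in scrambled and 4 to 18 in knockdown libraries and was too low to be tested.

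**Figure D3:**
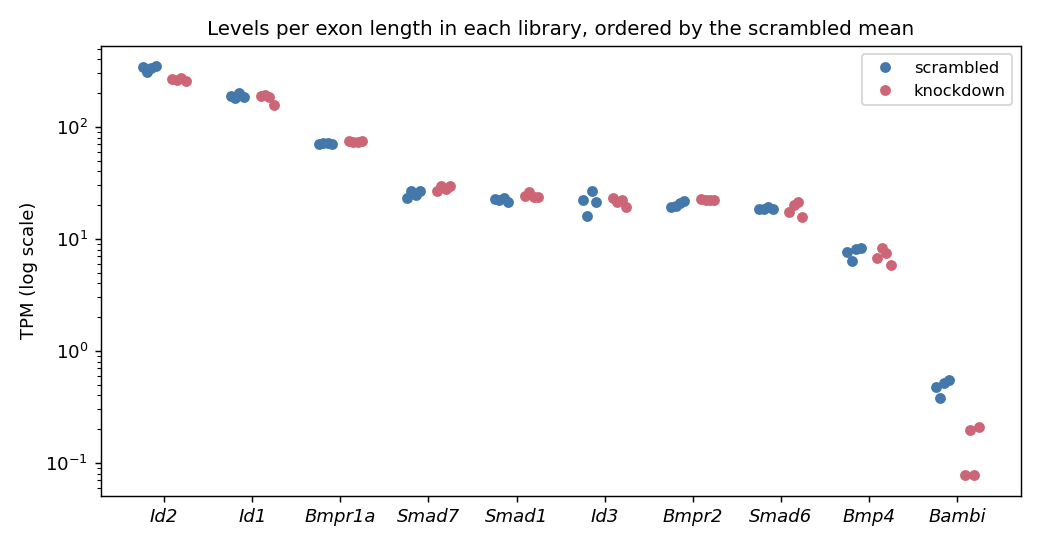
TPM of the 10 genes in each library on a log axis, ordered by the scrambled mean, scrambled in blue and knockdown in red. Id2, Id1 and Bmpr1a stand above the rest, 5 genes have scrambled means between 18.7 and 25.3 TPM, and Bambi lies below 1 TPM.

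Beyond the 10 genes, 86 further genes of the pathway were in the table and 47 passed the filter. Of these, 7 were called higher, 11 lower and 29 neither, which is 38.3% called where the whole table had 47.9%, with a median log2 fold change of -0.000407. That balance depended on the setting. Without scrambled replicate 2, 29 of 49 tested genes were called, 16 higher and 13 lower, which is 59.2% where all tested genes then had 50.6%. With upper-quartile factors 12 were higher and 11 lower, and with library totals alone 14 were higher and 11 lower, so more were higher than lower under each of these settings. All tested genes had 56.3% and 58.4% of their calls higher under those 2 scalings, and 49.7% with TMM. Of the 39 genes that were not tested, 17 had 0 counts in all libraries, which allows up to 3 counts or 0.127 to 0.157 CPM per library, for counting error only.

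Ligands other than Bmp4 were mostly too low to be tested. Of 13 listed, Bmp8a (0.670 ± 0.232 CPM in scrambled cells) and Bmp8b (5.67 ± 0.723 CPM) passed the filter and were not called, while the other 11 did not pass it. Bmp7, the highest of these, had 3, 7, 4 and 2 counts in scrambled and 20, 8, 14 and 19 in knockdown libraries. Its groups did not overlap, which also held for 42.2% of tested genes, and the filter left Bmp7 out of the main test. Among receptors and co-receptors, 1 of 7 tested genes was higher, 1 was lower and 5 were neither. Acvr1, a further type I receptor of BMPs, rose 1.12-fold (54.9 ± 2.05 against 49.1 ± 1.48 CPM, n = 4, adjusted p = 0.00304 by edgeR). Its libraries did not overlap, with 53.1 to 57.7 CPM in the knockdown and 47.8 to 51.2 in scrambled cells. Acvr2b, a type II receptor shared with activins, fell 1.39-fold, to 2.91 ± 0.297 from 4.06 ± 0.530 CPM (adjusted p = 0.00829). Bmpr1b, the type I receptor closest to Bmpr1a, had 0 to 3 counts per library.

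Of the other Smads, 4 of 5 were tested and 1 was called. Smad5, which acts in parallel to Smad1, stood at 86.4 ± 3.20 in knockdown and 91.1 ± 3.18 CPM in scrambled libraries. Its log2 fold change was -0.08 (adjusted p = 0.0841), and it was called lower without scrambled replicate 2 (adjusted p = 0.0344). Smad4, the common partner, stood at 127.7 ± 1.98 against 133.7 ± 2.51 CPM and was not called (adjusted p = 0.0578), although its groups did not overlap. Smad3, a transducer of TGF-beta and activin, fell 1.07-fold (adjusted p = 0.00367). Smad9, the third BMP Smad, had 1 to 3 counts in scrambled and 3 to 9 in knockdown libraries and was not tested.

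Extracellular antagonists and modulators held Chrd and Fst, the 2 largest changes among the 47 tested genes of the wider pathway, with 2 higher, 4 lower and 3 neither of 9 tested. Fst, follistatin, which binds activins and some BMPs, had a log2 fold change of -1.17 (adjusted p = 2.63e-11), from 29.99, 34.8, 30.9 and 28.2 CPM in scrambled to 16.1, 13.5, 13.1 and 12.5 CPM in knockdown libraries. All its knockdown libraries were far below the scrambled ones, and it shares 115 exon bases with the antisense gene Gm47040. Chrd, chordin, which holds BMPs away from their receptors, rose 2.45-fold from a low level, with 0.340, 0.503, 0.643 and 0.534 CPM in scrambled and 1.48, 1.40, 1.07 and 1.09 CPM in knockdown libraries (SE 0.276, adjusted p = 0.000501). Its groups did not overlap, all 4 knockdown and 3 of the scrambled libraries reached the filter's level of 0.49 CPM, and it shares 239 exon bases with Thpo on the opposite strand. Bmper, a secreted protein that modulates BMP4, fell 1.33-fold, to 5.01 ± 0.389 from 6.64 ± 0.716 CPM (adjusted p = 0.00438).

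Among intracellular regulators, all 16 were tested and 2 were higher, 5 lower and 9 neither. Fkbp1a, which binds unstimulated type I receptors and keeps them inactive, fell 1.16-fold (753.6 ± 5.35 against 871 ± 12.2 CPM, adjusted p = 1.48e-08). Nedd4l, a ubiquitin ligase that acts on Smads, fell 1.25-fold (63.1 ± 1.47 against 78.7 ± 3.88 CPM, adjusted p = 5.15e-07) and shares 277 exon bases with the antisense gene A330084C13Rik. Skil, a repressor of Smad-driven transcription, rose 1.19-fold (120.01 ± 4.86 against 100.9 ± 2.45 CPM, adjusted p = 1.62e-06).

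BMP targets other than the 10 genes, Id4 among them, were mostly below the filter, with 3 of 17 tested and 1 called. Lbh, a transcriptional regulator of limb and heart, rose 1.12-fold (78.8 ± 3.90 against 70.3 ± 2.95 CPM, adjusted p = 0.00185), with scrambled replicate 4 inside the knockdown range. Of the partners of Id proteins and related factors, 1 of 6 was called. Tcf3, an E protein bound by Id proteins, rose 1.05-fold (164.8 ± 2.12 against 156.8 ± 6.62 CPM, adjusted p = 0.049). That call was lost with DESeq2 (adjusted p = 0.0696) and without any 1 library other than scrambled replicate 2 (adjusted p from 0.0579 to 0.154). Without scrambled replicate 2, the highest scrambled library for Tcf3, the call held (log2 fold change 0.10 against 0.07 with it, adjusted p = 0.000893 by edgeR).

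**Figure D4:**
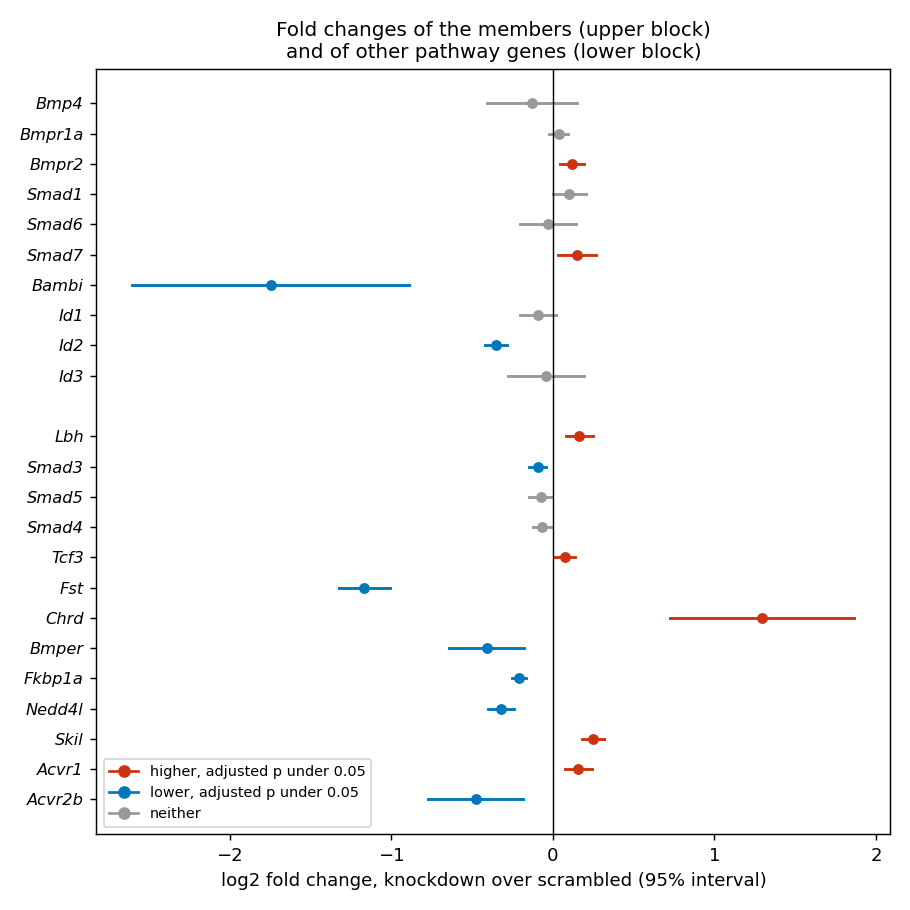
Log2 fold changes (knockdown over scrambled) with 95% intervals from edgeR for the 10 genes (upper block) and the 13 further pathway genes named by the rule and tested (lower block), coloured by call. Among the 10, the interval of Bambi (-2.60 to -0.89) is the widest and that of Bmpr1a (-0.02 to 0.10) the narrowest.

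Promoter windows of Bmp4, Bmpr1a, Bmpr2, Smad1, Smad6, Id2 and Id3 (250 bases before to 50 after the annotated start, RefSeq on GRCm38.p6) were read for short sequences that Smads are known to bind, to show which of these 7 genes carry one. Those of Id1, Smad7 and Bambi were not analysed here, so 2 of the 4 called genes are covered. The letters were GGCGCC, a GC-rich element bound by BMP Smads, CAGACA, and the palindrome GTCTAGAC, each searched on both strands. No 2 matches overlapped in these windows. GGCGCC lay once in the windows of Id2, Bmpr2 and Bmpr1a, and in 11.9% of 32851 windows of all genes. The windows of Id2, Bmpr2 and Bmpr1a lie inside the positions given above for these genes, whose outermost starts are further upstream. GTCTAGAC lay once in the window of Smad6, across the start site, and in 0.213% of all windows. CAGACA lay in none of the 7 and in 21% of all windows. These stretches of 30 bases have the motif in capitals. They lie at chr12:25096306-25096335 (minus strand) for Id2, chr1:59764162-59764191 (plus) for Bmpr2, chr14:34502727-34502756 (minus) for Bmpr1a and chr9:64022045-64022074 (minus) for Smad6.
Id2: tcaggccccctgGGCGCCcagcgcacactg
Bmpr2: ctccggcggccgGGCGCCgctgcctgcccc
Bmpr1a: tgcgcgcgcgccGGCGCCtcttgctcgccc
Smad6: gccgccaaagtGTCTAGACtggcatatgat

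Of the 3 genes with GGCGCC, Id2 fell, Bmpr2 rose and Bmpr1a was not called, and Smad6, with the palindrome, was not called either. The presence of these letters does not show that a Smad was bound there.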

How the data were processed

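The values are raw read counts by gene symbol, as deposited, for 8 libraries. Per the labels' protocols, libraries were stranded, poly(A)-selected and read as paired ends of 59 bases. Per the submitters' processing notes, the tools were STAR, Bowtie, bcl2fastq 2.20, R 4.2.1 and DESeq2 1.36.0, and the build mm10, with no roles named. Which tool counted, with which annotation and strand setting, is not given in the sources used here, so reads of overlapping genes on opposite strands cannot be told apart. Counts were tested across all genes in R 4.3.3 with edgeR 4.0.16 (filterByExpr with minimum count 10 and total 15, TMM factors, quasi-likelihood fit and test with group as the only term), with Benjamini-Hochberg adjustment. Samples were grouped by their titles. The members and lists were chosen with earlier results of these data known. Named genes were the 10 members, up to 3 called genes with the smallest adjusted p per pathway role, and Smad4, Smad5, Smad9, Id4 and Bmpr1b whatever their values. The ligands Bmp7, Bmp8a and Bmp8b were named outside this rule. Positions, exon lengths and UTRs came from GENCODE M21 (GRCm38), with 23350 symbols matched by current and 667 by older name, holding at least 99.58% of each library's counts. Log2 ratios within a library used 5 pairs of members chosen after seeing the data, and an exact permutation test over 70 arrangements (scipy 1.17.1). Alternatives were other scalings, filters, DESeq2 1.42.0, limma-voom (limma 3.58.1), a replicate block, stricter thresholds and leaving out each library. The edgeR script was tested on simulated data.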

Additional observations from a re-analysis of the deposited data

How the results depend on the processing

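Of the 10 genes, 4 were called, against 47.9% of all tested genes. That count was 5 with upper-quartile factors (48% of all tested genes) and with library totals alone (48.4%). It was 3 with an adjusted p under 0.01 (36%), and 3 where 1 CPM in 4 libraries was asked for (49.2%, Bambi then not tested). Against a fold of 1.2 it was 2, Bambi among them, where 1107 of all tested genes (9.38%) and 2 of the wider pathway were called. It was 3 to 5 without each library in turn, where 43.1% to 50.6% of all tested genes were called. The count of 5, with 2 higher and 3 lower, came without scrambled replicate 2 (50.6% of all tested genes). Of all tested genes 5645 were called, and 5116 to 6004 without each library. The wider pathway had 18 called genes (38.3% of those tested), 23 (48.9%) with upper-quartile factors and 25 (53.2%) with library totals. It had 15 to 29 (31.2% to 59.2%) without each library, 29 without scrambled replicate 2. Over 16 alternatives, 152 of 159 fold changes of the 10 genes kept their side of the threshold, 4 lost the call (Smad7) and 3 gained it (Smad1 and Id1), and no called gene changed direction. Replicate numbers were not taken as pairs, since same-numbered libraries deviated together in none of the 4 pairs (correlations from -0.035 to 0.0201). With the replicate block 4 of the 10, 18 of the wider pathway and 5533 of all genes were called. The pair ratios, the other transcript length and the test against a fold of 1.2 for all genes and the wider pathway were added after seeing the data. Depth limits Bambi, with 2 to 16 counts per library.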
